A study of Chlamydomonas reinhardtii with 28 samples.

Results

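The carotenoid pathway of the green alga *Chlamydomonas reinhardtii* was followed step by step through 8 gene symbols named for its enzymes, PSY1, PDS1, ZDS1, LCYB1, LCYE1, CHYB1, ZEP1 and ZPD1. Of the 8 symbols, 7 were each carried by 1 gene of the 17611 genes in the expression table, 4326 of which have a symbol. No gene in the table carries the symbol LCYB1, so the lycopene beta-cyclase step is not analysed here. The genes are PSY1 (Cre02.g095092), PDS1 (Cre12.g509650), ZPD1 (Cre12.g541750), ZDS1 (Cre07.g314150), LCYE1 (Cre06.g267600), CHYB1 (Cre04.g215050) and ZEP1 (Cre02.g082550), where the digits after "Cre" name the chromosome. Gene starts, ends and sequences were not used here.

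The study set the basal transcriptomes of 7 laboratory strains, all in use as "wild type", side by side. Transcripts were measured by RNA-Seq of polyadenylated RNA in 28 libraries, 4 replicate cultures for each strain. CC-125 and CC-1690 are of mating type plus. CC-124, CC-1009, CC-1691, CC-4532 and CC-4533 are of mating type minus. CC-4532 is the strain of the reference genome to which the reads of all 7 strains were mapped, and CC-4533 is the parent of a widely used collection of insertion mutants. No strain was treated, and all grew photoheterotrophically, in acetate medium with trace nutrients, shaken at 180 rpm under continuous light of 50 to 70 µmol photons m-2 s-1, to mid-logarithmic phase. By their names the libraries form 2 sets, with CC-125 and CC-4533 in set 2 and the other 5 strains in set 1. Where CC-125 and CC-4533 stand apart from the rest, strain and set cannot be told apart.

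Carotenoids are made in the chloroplast from geranylgeranyl diphosphate. Phytoene synthase joins a pair of these molecules into colourless phytoene, and phytoene desaturase and zeta-carotene desaturase introduce the double bonds that lead, with the help of isomerases, to red lycopene. Lycopene cyclases then close the ends of the molecule into rings: with the epsilon-cyclase one branch leads to alpha-carotene and lutein, and with the beta-cyclase alone the other leads to beta-carotene. Hydroxylation of beta-carotene gives zeaxanthin, which zeaxanthin epoxidase converts to violaxanthin and which is formed again from violaxanthin in excess light, as part of the protection of the photosystems. Carotenoids are also structural parts of the light-harvesting complexes.

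Levels are given in FPKM, a read count scaled to the length of the transcript and the size of the library, so that genes can be compared with each other. A gene's FPKM is relative to the other mRNA of its library, so more transcripts of that gene per cell and fewer transcripts of other genes cannot be told apart. Differences between strains are on the scale of log2(FPKM + 0.1). A gene's strain effect was tested with the limma F test over the 7 strains, and each strain was set against the mean of the other 6 with limma's moderated test, both with Benjamini-Hochberg adjustment over the 14785 genes whose mean exceeded 1 FPKM in 1 or more strains. A member was called at an adjusted p below 0.05. All 7 members passed the filter on low values.

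Transcripts of the pathway were most abundant in CC-4532 at 5 of 7 steps and least abundant in CC-4533 at 5 of 7, and CC-124 was the next lowest strain at most steps. Over the 7 strains the 3 members that act after lycopene, LCYE1, CHYB1 and ZEP1, varied most of the 7 members and ZPD1 least. Among the 5 strains of library set 1, CHYB1 varied no more than PDS1. The steps did not all keep to this order: ZPD1 had its highest mean in CC-4533, ZEP1 had its highest mean in CC-1009, and CHYB1 was low in CC-125 and not low in CC-124. Neither of these top strains passed the test against the next, CC-125 for ZPD1 and CC-4532 for ZEP1 (adjusted p = 0.629 and 0.679, limma).

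All 7 members differed between strains by the F test, with adjusted p from 2.02e-13 for ZEP1 to 5.03e-06 for CHYB1. That test called 95.2% of all genes, so the count does not set the members apart. Between its lowest and its highest strain mean the level spanned 1.75-fold for ZPD1, 2.21-fold for PDS1, 2.57-fold for PSY1, 2.66-fold for ZDS1, 4.19-fold for CHYB1, 4.74-fold for LCYE1 and 4.76-fold for ZEP1. The median of these 7 spans was 2.66-fold, beside 2.38-fold over all genes tested. Thus, among the 7 members, the spread was 1.75-fold to 2.66-fold at the steps up to lycopene and 4.19-fold to 4.76-fold at the 3 steps after it. Other genes for the steps after lycopene did not all vary that much. Of the cytochrome P450s of the family that hydroxylates carotenoids, CYP97A5 spanned 1.65-fold and CYP97C3 2.01-fold, while CYP97A6 spanned 7.39-fold. Within library set 1 the span was 3.01-fold for LCYE1 and 3.12-fold for ZEP1 but 2.17-fold for CHYB1, beside 1.54-fold to 2.21-fold at the steps up to lycopene. The difference between these groups of steps was not tested.

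The libraries were alike in how many genes had a value above 0, from 16121 to 16594, while their summed FPKM ran from 480355 to 1319895, the highest in CC-1690 replicate 2. Each library was correlated with the others of its own strain, and the mean r was 0.986 or more in 6 strains. The 4 libraries of CC-4533 had a mean r of 0.971, 0.978, 0.940 and 0.977. The lowest, replicate 3, also had the lowest level of its strain in all 7 members. The mating types given by the study were checked with MID1, a gene of the minus mating type, which stood at 3.12 to 11.4 FPKM in the 20 minus libraries and at 0 to 0.08 FPKM in the 8 plus libraries.

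**Figure D1:**
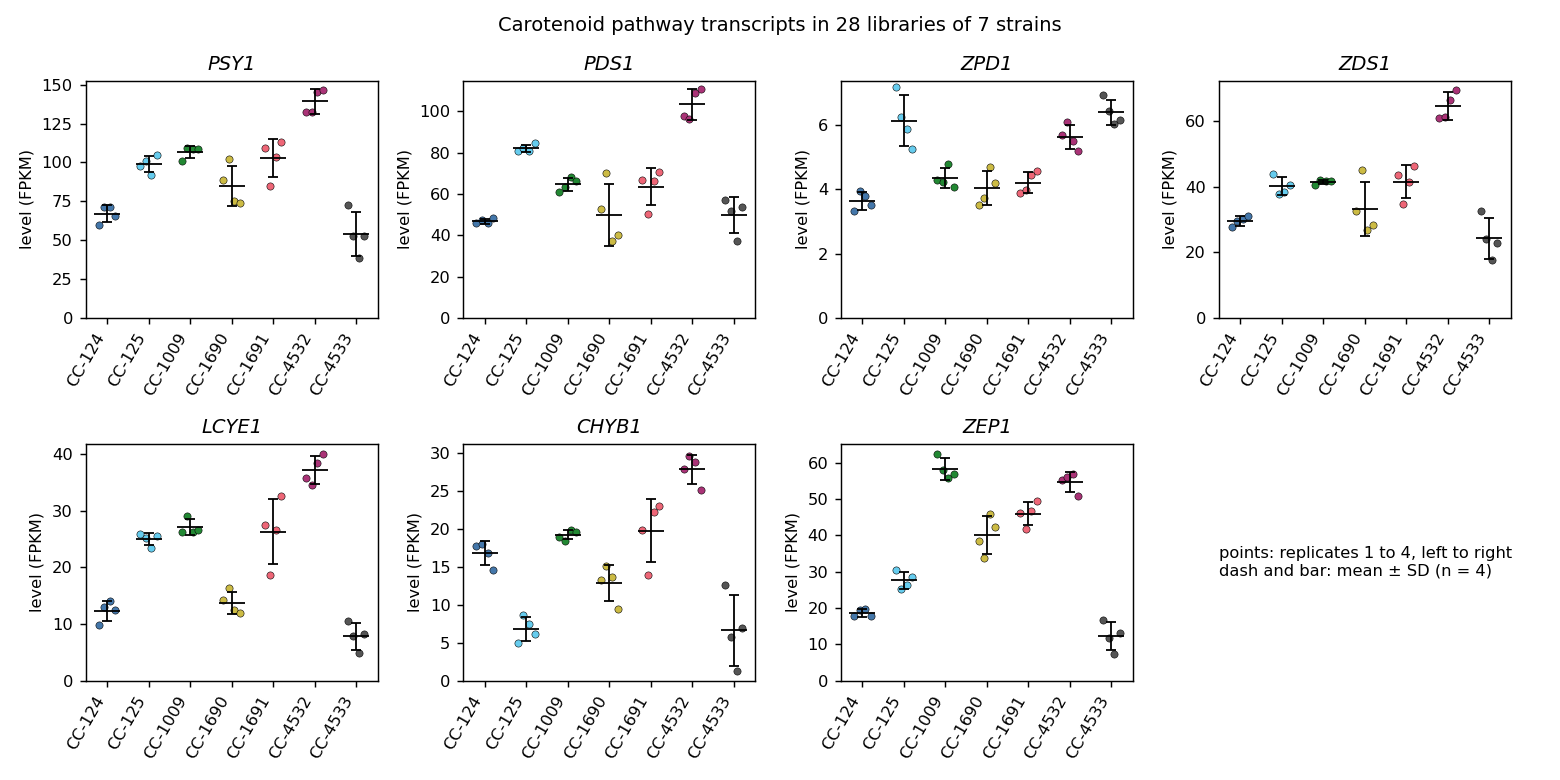
Level in FPKM (vertical axes, each starting at 0) of the 7 pathway genes in each strain (horizontal axes). Points are the 4 replicates, dash and bar the mean ± SD; CC-4532 has the highest mean in 5 of 7 panels, and CC-4533 the lowest in 5 of 7.

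PSY1 encodes phytoene synthase, which commits geranylgeranyl diphosphate to the pathway, and was its most abundant transcript. CC-4532 had the highest level, with 132, 133, 145 and 147 FPKM in its 4 replicates. CC-1009 followed with 101, 109, 108 and 109 FPKM, and CC-1691 with 109, 85.0, 104 and 113 FPKM. Every CC-4532 culture exceeded all 24 other libraries, while CC-1009 and CC-1691 overlapped. CC-125 had 98.0, 101, 92.0 and 105 FPKM, and CC-1690 had 88.5, 102, 75.4 and 73.8 FPKM. At the low end, CC-124 had 59.7, 71.6, 71.1 and 65.5 FPKM and CC-4533 had 72.6, 52.9, 38.4 and 52.5 FPKM. The lowest strains overlapped, because replicate 1 of CC-4533 lay above all CC-124 cultures. Against the other 6 strains, PSY1 was higher in CC-4532 (log2 difference 0.75 ± 0.10 SE, adjusted p = 9.44e-07, limma) and in CC-1009 (0.31 ± 0.10, adjusted p = 0.0149), a call that was lost within library set 1 (0.18, adjusted p = 0.0782). It was lower in CC-124 (-0.48 ± 0.10, adjusted p = 0.000277) and in CC-4533 (-0.88 ± 0.10, adjusted p = 5.01e-08). CC-125, CC-1690 and CC-1691 were not called, with log2 differences of 0.18, -0.10 and 0.23. CC-1691 was called without CC-1690 replicate 2, CC-1691 replicate 2, CC-4533 replicate 1 or CC-4533 replicate 3 (0.20 to 0.32), and CC-125 without CC-4533 replicate 1 (0.20). CC-1690 was called lower within library set 1 (-0.25, adjusted p = 0.00961, limma), with quantile normalization (-0.44) and with equal summed FPKM (-0.65), and both of these scalings also called CC-1691 higher (0.45 and 0.72). Between neighbours in the order of the strain means, PSY1 differed in 3 of 6 cases: CC-4532 from CC-1009, CC-1690 from CC-124, and CC-124 from CC-4533 (adjusted p = 0.029, 0.0373 and 0.0383, limma). The order was taken from the same libraries. Tests between neighbours, here and for the other members, therefore describe the gaps and do not establish groups of strains.

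PDS1 encodes phytoene desaturase, which turns phytoene into zeta-carotene. CC-4532 was again first, with 97.9, 96.4, 109 and 111 FPKM, above all other libraries. CC-125 came next and was narrow, with 80.9, 82.1, 80.9 and 84.7 FPKM. No other strain had a culture above 70.6 FPKM. CC-1009 had 61.2, 63.4, 68.1 and 66.3 FPKM and CC-1691 had 66.6, 50.3, 66.3 and 70.6 FPKM. CC-1690 was wide, with 52.7, 70.0, 37.1 and 40.1 FPKM, and replicate 2 was the high one. CC-4533 had 57.1, 51.9, 37.2 and 53.7 FPKM and CC-124 had 45.9, 47.5, 45.8 and 48.3 FPKM, so the ranges of the 3 lowest strains overlapped. PDS1 was higher than in the other 6 strains in CC-4532 (log2 difference 0.83 ± 0.11 SE, adjusted p = 7.27e-07, limma) and in CC-125 (0.45 ± 0.11, adjusted p = 0.00118). Lower levels were called in CC-124, CC-1690 and CC-4533, by -0.49, -0.44 and -0.41 (adjusted p = 0.000601, 0.00118 and 0.00295, limma). In CC-1009 and CC-1691 the differences were 0.05 and 0.00, with 95% intervals of -0.18 to 0.28 and -0.23 to 0.23. The neighbours in rank that differed were CC-125 and CC-1009 (adjusted p = 0.0494, limma) and CC-1691 and CC-4533 (adjusted p = 0.0432).

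ZPD1 is annotated as a putative zeta-phytoene desaturase, and its role among the desaturases is not further known from the files. Its transcript was the rarest of the 7 in 25 of 28 libraries. CC-4533 had 6.92, 6.44, 6.04 and 6.14 FPKM, CC-125 had 7.17, 6.24, 5.87 and 5.25 FPKM and CC-4532 had 5.67, 6.09, 5.50 and 5.20 FPKM. These were the 3 highest strains, and no culture of the other 4 strains exceeded 4.79 FPKM. CC-1009 had 4.28, 4.23, 4.79 and 4.07 FPKM, CC-1691 had 3.89, 3.96, 4.43 and 4.55 FPKM, CC-1690 had 3.51, 3.73, 4.69 and 4.18 FPKM and CC-124 had 3.33, 3.94, 3.78 and 3.51 FPKM. By these values ZPD1 had an upper and a lower group of strains. The only neighbours in rank that differed were CC-4532 and CC-1009, on either side of that gap (adjusted p = 0.00647, limma). The gap was found in the same values, so this p-value is no separate test of the groups. ZPD1 was the sole member that was higher in CC-4533 than in the other strains (log2 difference 0.47 ± 0.08 SE, adjusted p = 1.01e-05, limma). It was also higher in CC-125 (0.40 ± 0.08, adjusted p = 8.9e-05) and in CC-4532 (0.26 ± 0.08, adjusted p = 0.00636). The strains with a lower level were CC-124, CC-1690 and CC-1691, by -0.45, -0.30 and -0.22 (adjusted p = 2.22e-05, 0.00154 and 0.0235, limma). The calls in CC-1690 and CC-1691 were lost within library set 1 (adjusted p = 0.124 and 0.629, limma), where the differences were -0.13 and -0.05. The one in CC-1691 was also lost without its own replicate 1 or 2 (-0.18 and -0.19). Both strains of set 2 were in the upper group, with 5.25 to 7.17 FPKM in their 8 libraries beside 3.33 to 6.09 FPKM in the 20 of set 1.

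ZDS1 encodes zeta-carotene desaturase, which completes the desaturation towards lycopene. CC-4532 stood apart with 60.9, 61.2, 66.4 and 69.7 FPKM. The next 3 strains lay together: CC-1691 had 43.6, 34.7, 41.3 and 46.4 FPKM, CC-1009 had 40.5, 42.0, 41.7 and 41.7 FPKM and CC-125 had 44.0, 37.9, 38.3 and 40.7 FPKM. Of the remaining strains, CC-1690 had 32.6, 45.1, 26.7 and 28.3 FPKM, CC-124 had 27.7, 29.5, 30.0 and 31.1 FPKM and CC-4533 had 32.5, 24.1, 17.6 and 22.9 FPKM. The ranges of these last 3 strains overlapped. ZDS1 was higher than in the other 6 strains in CC-4532 only (log2 difference 0.92 ± 0.11 SE, adjusted p = 1.11e-07, limma). It was lower in CC-4533 (-0.76 ± 0.11, adjusted p = 1.5e-06, limma) and in CC-124 (-0.39 ± 0.11, adjusted p = 0.00385). CC-1690 was not called (-0.23, adjusted p = 0.0605, limma), but without its replicate 2 the difference was -0.39 (adjusted p = 0.00234), and it was also called without CC-1691 replicate 2 (-0.25) or CC-4533 replicate 3 (-0.26) and within library set 1 (-0.39, adjusted p = 0.00122). Only CC-4532 differed from its neighbour in rank, CC-1691 (adjusted p = 0.00106, limma).

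LCYE1 encodes lycopene epsilon-cyclase, the entry to the alpha-carotene and lutein branch. CC-4532 was highest with 35.8, 34.6, 38.4 and 40.1 FPKM, above all other libraries. Behind it were CC-1009 with 26.3, 29.2, 26.2 and 26.6 FPKM, CC-1691 with 27.6, 18.6, 26.5 and 32.7 FPKM, and CC-125 with 26.0, 25.1, 23.5 and 25.5 FPKM. A gap followed, with no culture of the lower 3 strains above 16.3 FPKM. CC-1690 had 14.3, 16.3, 12.5 and 11.9 FPKM and CC-124 had 9.87, 13.0, 14.1 and 12.5 FPKM, whereas CC-4533 had 10.6, 7.86, 4.82 and 8.15 FPKM. Every strain was called for LCYE1. It was higher in CC-4532, CC-1009, CC-1691 and CC-125, by 1.14, 0.61, 0.53 and 0.48 on the log2 scale (adjusted p = 4.87e-08, 0.00033, 0.00142 and 0.0026, limma). It was lower in CC-1690, CC-124 and CC-4533, by -0.54, -0.72 and -1.52 (adjusted p = 0.000706, 4.91e-05 and 2.18e-10, limma). The difference of CC-4533 was a 2.86-fold lower level, and it remained called against a 2-fold limit (limma treat, adjusted p = 0.00529). The neighbours in rank that differed were CC-4532 and CC-1009 (adjusted p = 0.0397, limma), CC-125 and CC-1690 (7.29e-05), and CC-124 and CC-4533 (0.00173).

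CHYB1 encodes the beta-carotene hydroxylase that leads to zeaxanthin. CC-4532 was highest, with 27.8, 29.6, 28.8 and 25.1 FPKM, above all other libraries. CC-1691 had 19.9, 13.9, 22.2 and 23.0 FPKM, CC-1009 had 19.0, 18.4, 19.8 and 19.6 FPKM and CC-124 had 17.8, 18.0, 16.8 and 14.6 FPKM. CC-1691 spanned the range of the other pair, so that CC-124, low at the other steps, was in the middle here. CC-1690 had 13.2, 15.1, 13.6 and 9.47 FPKM. CC-125 had 4.91, 8.66, 7.42 and 6.15 FPKM, and CC-4533 had 12.6, 5.76, 1.23 and 6.97 FPKM, the widest spread of any strain at this step. CHYB1 was higher than in the other strains in CC-4532 (log2 difference 1.23 ± 0.28 SE, adjusted p = 0.000671, limma). Its level was lower in CC-125 (-1.16 ± 0.28, adjusted p = 0.000964, limma) and in CC-4533 (-1.61 ± 0.28, adjusted p = 2.3e-05). The other 4 strains were not called, with 95% intervals that reached from -0.20 to 0.96 in CC-124 and from -0.66 to 0.50 in CC-1690. CC-1009 and CC-1691 stood at 0.61 and 0.63, with 95% intervals, not adjusted, of 0.03 to 1.19 and 0.05 to 1.21 (adjusted p = 0.0724 and 0.0684, limma). With a pseudocount of 1 both were called higher (adjusted p = 0.0474 and 0.0433, limma). Within library set 1, which leaves out both low strains, CHYB1 was lower in CC-1690 (-0.68, adjusted p = 1.37e-05, limma), and the differences of CC-124, CC-1009 and CC-1691 were -0.19, 0.06 and 0.08. Values without CC-4533 replicate 3 differed: the difference of CC-4533 was -0.96 (adjusted p = 1.67e-05, limma), and CHYB1 was then also called higher in CC-1009 (0.50, adjusted p = 0.00461) and in CC-1691 (0.52, adjusted p = 0.00381). Both were called without CC-4533 replicate 1 as well (0.69 and 0.70, adjusted p = 0.0177 and 0.0164, limma), where CC-4533 itself was at -2.05. Both low strains belong to library set 2, whose 8 libraries had 1.23 to 12.6 FPKM beside 9.47 to 29.6 FPKM in the 20 of set 1. CC-1690 and CC-125 were the sole neighbours in rank that differed (adjusted p = 0.0296, limma).

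ZEP1 encodes zeaxanthin epoxidase, which converts zeaxanthin to violaxanthin. Here CC-4532 was not first. CC-1009 had 62.5, 57.9, 55.8 and 56.9 FPKM, and CC-4532 had 55.2, 56.1, 56.9 and 50.9 FPKM. CC-1691 had 46.3, 41.7, 46.7 and 49.4 FPKM and CC-1690 had 38.5, 33.7, 45.9 and 42.3 FPKM. Neighbours among these 4 strains did not pass the test (adjusted p = 0.679, 0.202 and 0.224, limma). The lower 3 strains descended in separate steps, without overlap: CC-125 had 30.4, 25.1, 26.2 and 28.5 FPKM, CC-124 had 17.7, 19.4, 19.8 and 17.9 FPKM and CC-4533 had 16.6, 11.9, 7.37 and 13.1 FPKM. The last 3 neighbours in rank all differed (adjusted p = 0.00246, 0.00199 and 6e-04, limma). ZEP1 was higher than in the other strains in CC-1009, CC-4532, CC-1691 and CC-1690, by 1.00, 0.89, 0.60 and 0.36 (adjusted p = 4.26e-08, 2.52e-07, 8.63e-05 and 0.00597, limma). It was lower in CC-4533 by -1.68 (a 3.21-fold lower level, adjusted p = 1.49e-12, limma), in CC-124 by -0.91 (1.86e-07) and in CC-125 by -0.26 (0.048). The call in CC-4533 held against a 2-fold limit (limma treat, adjusted p = 3.39e-05), and all 4 of its cultures lay below every other library, which was so for 3.02% of all genes. The difference of CC-1690 was -0.03 within library set 1 (adjusted p = 0.706, limma) and 0.14 with quantile normalization (0.343), and the call in CC-125 was lost in 21 of the 28 fits that each left out 1 library.

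Within a library the steps from PSY1 to LCYE1 kept one order in nearly all cases, and the places of CHYB1 and ZEP1 varied. PSY1 exceeded PDS1 in 27 of 28 libraries, PDS1 exceeded ZDS1 in 28, and ZDS1 exceeded LCYE1 in 28. The exception at the first step was CC-4533 replicate 4. LCYE1 exceeded CHYB1 in 22 libraries and in 6 of 7 strain means, the exception being CC-124, where all 4 cultures had more CHYB1. ZEP1 exceeded CHYB1 in 27 libraries, and it exceeded ZDS1 in 11 libraries and in 3 of 7 strain means.

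Read by strain, 35 of the 49 combinations of member and strain were called, 17 higher and 18 lower, beside 56% over all genes. CC-4532 was higher at all 7 steps, from 0.26 for ZPD1 to 1.23 for CHYB1, with a median log2 difference of 0.89. Over all genes 26.6% were higher in CC-4532 and the median difference was 0.00. In 5 members (PSY1, PDS1, ZDS1, LCYE1 and CHYB1) its 4 cultures lay above the 24 other libraries, which was so for 3.29% of all genes. The 7 steps were called higher in CC-4532 within library set 1 as well, where 30.1% of all genes were higher.

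CC-4533 was the opposite at 6 of 7 steps. It was lower in PSY1, PDS1, ZDS1, LCYE1, CHYB1 and ZEP1 (30.3% of all genes were lower) and higher in ZPD1 alone (29.2% were higher), with a median of -0.88. Its 3 largest differences were those after lycopene, -1.52, -1.61 and -1.68. Without replicate 3 the same 6 members were lower and ZPD1 higher, with differences of -0.73 for PSY1, -0.27 for PDS1, -0.62 for ZDS1, -1.30 for LCYE1, -0.96 for CHYB1 and -1.46 for ZEP1. The other strain of the same library set gave a comparison within the set: CC-125 had more PSY1, PDS1, ZDS1, LCYE1 and ZEP1 than CC-4533, each at an adjusted p below 0.01 (limma), and CHYB1 and ZPD1 did not pass (adjusted p = 0.4 and 0.629). The share of all genes that passed in this pair is not given here, so these calls do not set the members apart. Summed over the 7 members, the level was 433 ± 19.0 FPKM in CC-4532 and 161 ± 39.3 FPKM in CC-4533 (SD, n = 4).

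CC-124 was lower at 6 of 7 steps (27.9% of all genes were lower) and higher at 0 (25.6% were higher), with a median of -0.48. The step without a call was CHYB1, at 0.38 (adjusted p = 0.262, limma). CC-125 was mixed, with 3 members higher (PDS1, ZPD1 and LCYE1; 30.4% of all genes) and 2 lower (CHYB1 and ZEP1; 28.5%). CC-1009 had 3 higher, PSY1, LCYE1 and ZEP1 (25.4% of all genes), and 0 lower (24.5%). CC-1691 had 2 higher, LCYE1 and ZEP1 (23.4%), and 1 lower, ZPD1 (23.6%). CC-1690 had 1 higher, ZEP1 (34.2%), and 3 lower, PDS1, ZPD1 and LCYE1 (35.3%).

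**Figure D2:**
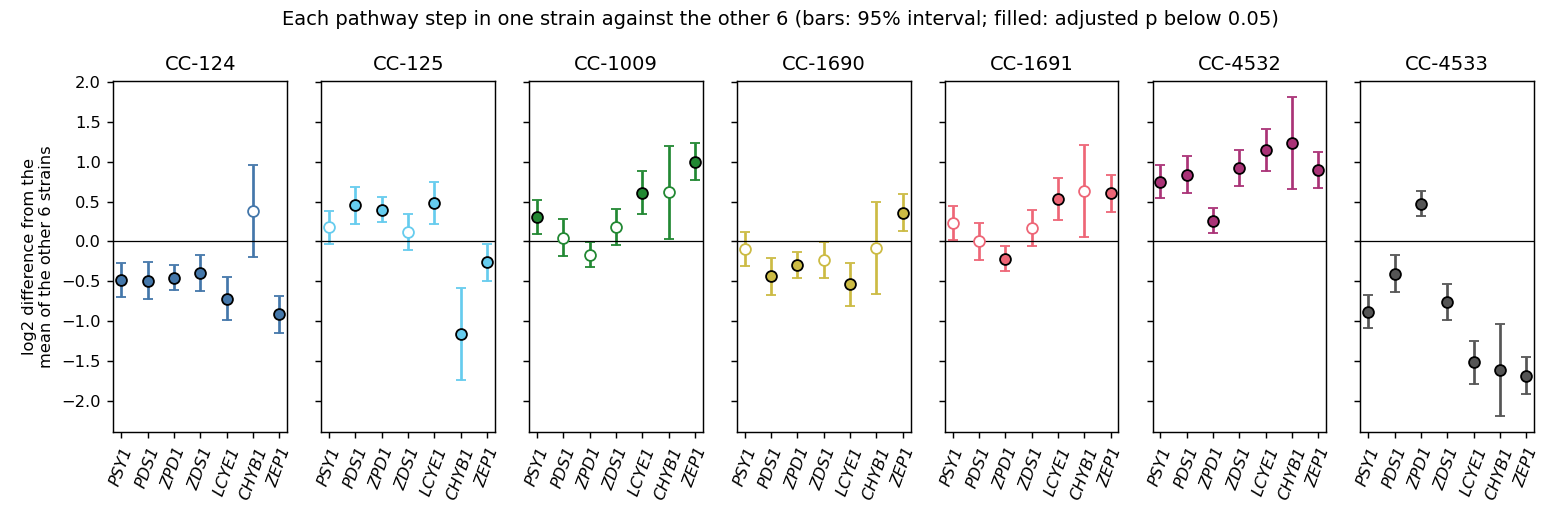
Difference of each strain from the mean of the other 6 on the log2(FPKM + 0.1) scale (vertical axis) for the 7 members in pathway order (horizontal axes). Bars are 95% intervals and filled points have an adjusted p below 0.05; all 7 points are filled above 0 in CC-4532, and 6 of 7 are filled below 0 in CC-4533.

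The counts of several strains moved with the scaling of the libraries, whereas the 7 higher members in CC-4532 and the 6 lower in CC-4533 did not. When each library was rescaled to the same summed FPKM, the median of all genes shifted by -0.53 in CC-1690, -0.39 in CC-4533, -0.28 in CC-125, 0.22 in CC-1009, 0.25 in CC-124 and CC-4532 and 0.48 in CC-1691. Then 7 members were higher in CC-4532 and 6 lower in CC-4533, while CC-1691 had 6 higher and 0 lower, CC-1009 5 higher, CC-1690 0 higher and 5 lower, CC-124 2 lower, and CC-125 0 higher and 2 lower. ZPD1 was no longer called higher in CC-4533 under that scaling. The shares of all genes called higher and lower moved too, to 62.3% and 5.59% in CC-1691 and to 11.3% and 60.3% in CC-1690. They were 40.4% and 12.1% in CC-4532 and 9.03% and 54% in CC-4533. For CC-1009, CC-124 and CC-125 they were 35.1% and 11.5%, 40.2% and 11.5%, and 15.2% and 43.7%. With quantile normalization 7 members were higher in CC-4532 (25.2% of all genes), and in CC-4533 1 was higher (34.5%) and 6 were lower (26.5%).

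**Figure D3:**
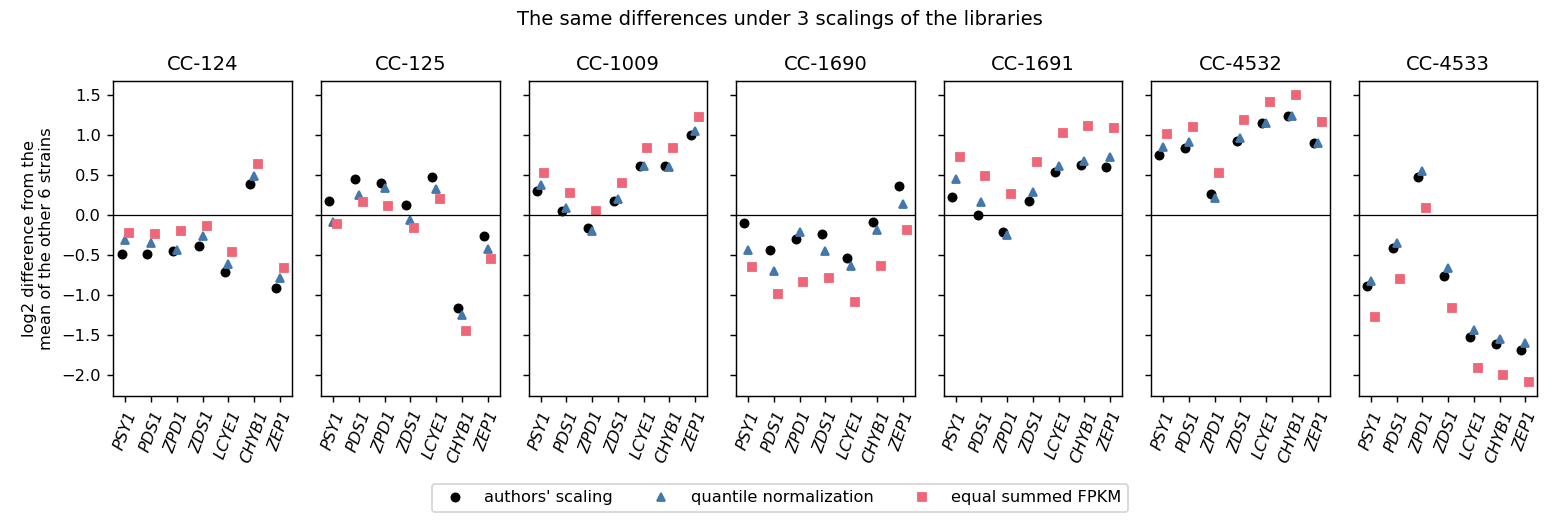
Difference of each strain from the mean of the other 6 (vertical axis, log2) for the 7 members (horizontal axes) with the deposited FPKM scaling (circles), quantile normalization (triangles) and equal summed FPKM (squares). With equal summed FPKM the members shift together within a strain, up in CC-1691 and down in CC-1690. CC-4532 stays above 0 at all 7 steps with each scaling.

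For single pairs of strains, a gene was counted as differentially expressed at an adjusted p below 0.01 with more than 2-fold between the strains on the fitted scale and a mean over 1 FPKM in either of them. Of the 147 combinations of 7 members and 21 pairs, 37 met these criteria, beside 17.4% of the combinations over all genes. At least 1 pair was called for 6 of 7 members, beside 64.1% of all genes. CHYB1 and ZEP1 met them in 10 pairs each, LCYE1 in 9, PSY1 and PDS1 in 3 each, ZDS1 in 2 and ZPD1 in 0. ZPD1 still had an adjusted p below 0.01 in 12 pairs, at less than 2-fold. Pairs with CC-4533 held 18 calls of 42, those with CC-4532 held 15 and those with CC-124 held 13. No share over all genes is given for single strains or pairs, so these counts and those below describe the members only. CC-4532 and CC-4533 differed at 6 of 7 steps, all higher in CC-4532: 2.63-fold for PSY1, 2.09-fold for PDS1, 2.71-fold for ZDS1, 4.86-fold for LCYE1, 5.42-fold for CHYB1 and 4.63-fold for ZEP1 on the fitted scale. Without CC-4533 replicate 3 the difference of CHYB1 was 3.45-fold, and that of PDS1 was 1.90-fold and so below the 2-fold limit. CC-124 and CC-4532 differed at 5 steps, all but ZPD1 and CHYB1. CC-1009 met the criteria at 0 steps with each of CC-1690, CC-1691 and CC-4532, as did CC-1691 with CC-1690 and CC-4532, and CC-125 with CC-1690. CC-124 and CC-125 differed in opposite directions at 2 steps: LCYE1 was 2.03-fold lower and CHYB1 2.49-fold higher in CC-124 (adjusted p = 1.22e-05 and 0.0033, limma).

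Ratios of successive steps within a library do not change when each library is multiplied by a factor. Quantile normalization can change them, and they were not tested under it. Each was tested for each strain against the 24 other libraries with a two-sided exact permutation test over all 20475 choices of 4 libraries, the smallest p of which is 9.77e-05, adjusted over 21 tests of 3 ratios. The test treats libraries as exchangeable, although the cultures of a strain go together. Its p-values therefore do not measure the spread among strains. Of the 21, 2 ratios were higher and 4 lower in 1 strain than in the rest.

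PDS1 to PSY1 was 0.787, 0.981, 0.970 and 1.02 in CC-4533, and at most 0.880 in the other strains. Its geometric mean was 0.936 in CC-4533 beside 0.673 elsewhere (adjusted p = 0.00513, exact permutation test). In CC-1690 it was lower, 0.575 beside 0.730 (adjusted p = 0.0349, exact permutation test), a call that was lost within library set 1 (adjusted p = 0.132) and without CC-1690 replicate 1, 3 or 4, CC-125 replicate 3 or 4 or CC-4533 replicate 4 (0.0509 to 0.136). ZDS1 to PDS1 was 0.543, 0.462, 0.474 and 0.480 in CC-125 and 0.569, 0.464, 0.473 and 0.426 in CC-4533. Both were lower than elsewhere, with geometric means of 0.489 and 0.480 beside 0.613 and 0.615 (adjusted p = 0.0308 and 0.0198, exact permutation test). The call in CC-125 was lost without its replicate 2, 3 or 4 (adjusted p = 0.0779, 0.0670 and 0.0661, exact permutation test) and that in CC-4533 without its replicate 4 (0.0574). For both ratios the 8 libraries of set 2 and the 20 of set 1 did not overlap: PDS1 to PSY1 was 0.787 to 1.02 in set 2 and 0.492 to 0.769 in set 1, and ZDS1 to PDS1 was 0.426 to 0.569 in set 2 and 0.602 to 0.720 in set 1. Strain and library set cannot be told apart for these early steps. Within set 1, ZDS1 to PDS1 passed in 0 of 5 strains, and PDS1 to PSY1 passed in CC-4532, where it was higher (log2 difference 0.25, adjusted p = 0.0372, exact permutation test).

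ZEP1 to CHYB1, the last step over the one before, was 0.996, 1.08, 1.18 and 1.22 in CC-124, below all 24 other libraries. The geometric mean was 1.12 in CC-124 beside 2.75 elsewhere (adjusted p = 0.00205, exact permutation test), and it was also lower within library set 1 (adjusted p = 0.00619). In CC-125 the ratio was 6.20, 2.90, 3.53 and 4.64, a geometric mean of 4.14 beside 2.21 elsewhere (adjusted p = 0.0397, exact permutation test). That call was lost without CC-125 replicate 1, 3 or 4 or CC-4533 replicate 4, with adjusted p up to 0.190 and log2 differences of 0.71 to 1.08. In CC-4533 the ratio ran from 1.32 to 5.99, the highest in replicate 3, where CHYB1 was at its lowest.

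The 3 planned ratios with LCYB1 could not be formed, and 2 ratios that bridge the gap, LCYE1 to ZDS1 and CHYB1 to LCYE1, were added after the data had been seen, with p-values adjusted over all 35 tests. LCYE1 to ZDS1 was 0.327, 0.327, 0.274 and 0.357 in CC-4533, below all 24 other libraries, though CC-124 replicate 1 came close at 0.357. Its geometric mean was 0.319 beside 0.542 elsewhere (adjusted p = 0.00171, exact permutation test). In CC-1009 it was higher, 0.652 beside 0.481 (adjusted p = 0.0361, exact permutation test), a call that was lost when any 1 of its own 4 cultures was left out. CHYB1 to LCYE1 was 1.80, 1.39, 1.19 and 1.17 in CC-124, a geometric mean of 1.37 beside 0.634 elsewhere (adjusted p = 0.00228, exact permutation test). It was 0.189, 0.344, 0.316 and 0.242 in CC-125, a geometric mean of 0.266 beside 0.833 elsewhere (adjusted p = 0.00256, exact permutation test). The transcript of the hydroxylase was thus about level with that of the epsilon-cyclase or above it in CC-124 and far below it in CC-125.

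**Figure D4:**
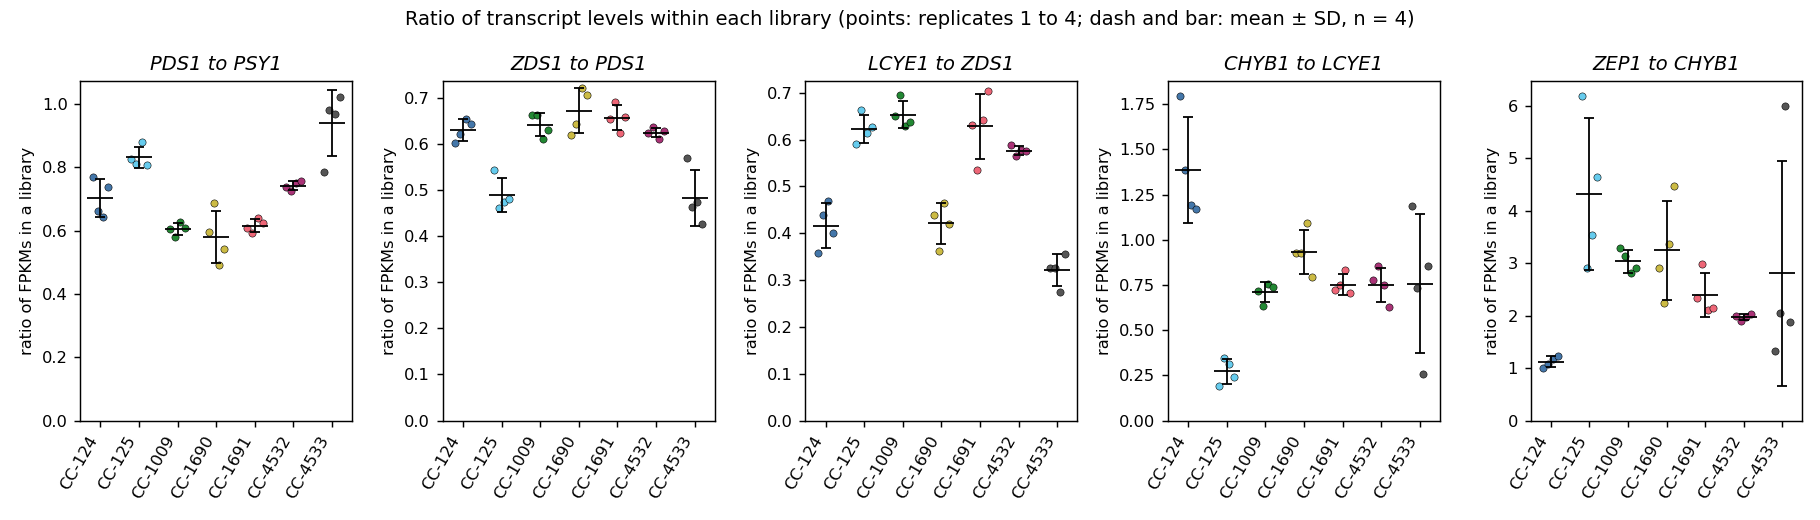
Ratio of the FPKMs of 2 pathway genes within each library (vertical axes, each starting at 0) by strain (horizontal axes), with points for the 4 replicates and dash and bar for the mean ± SD. CC-124 is lowest for ZEP1 to CHYB1 and CC-125 for CHYB1 to LCYE1, and both strains of library set 2 (CC-125 and CC-4533) are low for ZDS1 to PDS1.

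Over the 28 libraries, PSY1 moved with LCYE1 and ZDS1 (Pearson r = 0.97 for both on the log2 scale), less closely with ZEP1 (0.87), PDS1 (0.83) and CHYB1 (0.69), and had an r of 0.01 with ZPD1. ZPD1 and CHYB1 had an r of -0.42, but 0.19 over deviations from the strain means. The libraries share strains and scaling, so that these correlations are descriptions. Deviations from the strain means, which leave the strain differences out, gave an r of 0.94 for PSY1 and LCYE1, 0.92 for PSY1 and ZDS1 and 0.84 for PSY1 and PDS1. Among all genes with a symbol, the 3 most like PSY1 were LCYE1, NFU1, an iron-sulfur cluster assembly protein (0.97), and ZDS1. NFU1 was also second for ZDS1 (0.96) and for LCYE1 (0.97), with PSY1 first for both. The third was FAD5A, a palmitate desaturase, for ZDS1 (0.95) and LPA1, named for low photosystem II accumulation, for LCYE1 (0.97).

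PDS1 was most like SHKH1, chorismate synthase (0.94), PDH2, a subunit of pyruvate dehydrogenase (0.92), and GPAT1, a chloroplast glycerol-3-phosphate acyltransferase (0.92). ZPD1 was most like PGD1, a plastid galactoglycerolipid lipase (0.87), SSS2, a soluble starch synthase (0.83), and TAGL1, a triacylglycerol lipase (0.83). For CHYB1 the most alike were GAPN1, the nonphosphorylating glyceraldehyde 3-phosphate dehydrogenase (0.94), ARB1 (0.91) and TIM44, a subunit of the mitochondrial inner membrane translocase (0.90). For ZEP1 they were PMA2, a P-type ATPase (0.96), DPR1, dihydropicolinate reductase (0.96), and MDH5, an NADP-malate dehydrogenase (0.95). No member was among the 3 genes most like PDS1, ZPD1, CHYB1 or ZEP1.

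The supply of prenyl diphosphates was followed in a list of 10 genes, 9 of which lead to geranylgeranyl diphosphate through the methylerythritol phosphate pathway of the chloroplast. The tenth is FPS1, farnesyl diphosphate synthase, which serves sterols rather than carotenoids. All 10 passed the filter and differed between strains by the F test, as did 95.2% of all genes. CC-4532 had 7 of 10 higher (26.6% of all genes) and 0 lower (27.4%), with a median log2 difference of 0.41 beside 0.00 over all genes. CC-4533 had 0 higher (29.2% of all genes) and 7 lower (30.3%), with a median of -0.37, and CC-125 had 6 higher (30.4%) and 0 lower (28.5%), with a median of 0.36. FPS1 was not among the genes called in these 3 strains, so that the counts over the other 9, a list formed after seeing the data, were the same. Replicate 3 of CC-4533 was the lowest of its strain in all genes of the list but MEC1 and IDS1. It had 25.1 FPKM for DXR1, beside 47.0 to 52.2 FPKM in the other replicates of CC-4533. For FPS1 it had 17.2 FPKM, beside 43.6 to 51.6 FPKM. The counts for CC-4533 were not recomputed without this library. GGPS1, geranylgeranyl diphosphate synthase, which makes the substrate of PSY1, followed the same order at the ends as PSY1. Its level was 100, 101, 110 and 111 FPKM in CC-4532 and 50.5, 37.3, 13.4 and 37.8 FPKM in CC-4533, so that these strains did not overlap. In CC-4533 it was lower by -1.13 ± 0.19 SE on the log2 scale (adjusted p = 1.49e-05, limma), and by -0.72 without replicate 3 (adjusted p = 3.84e-05). CMS1, which makes the cytidyl intermediate of that pathway, was lower in CC-4533 by -0.91 (adjusted p = 6.07e-05, limma), and by -0.58 without replicate 3 (0.000577). CMK1, the kinase that acts next, went another way and was lowest in CC-1009, with 10.8, 9.82, 9.91 and 9.74 FPKM (-0.88, adjusted p = 4.63e-06, limma). FPS1 was highest in CC-1690, with 53.1, 55.9, 53.4 and 52.9 FPKM (0.81, adjusted p = 7.25e-05, limma), and that call was lost with equal summed FPKM (0.26, adjusted p = 0.176).

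A second list held 14 other genes annotated for carotenoids, of which 10 passed the filter and differed by the F test, which called 95.2% of all genes. The 4 that did not pass, 3 annotated as putative zeaxanthin epoxidases or like them and 1 as a carotenoid cleavage dioxygenase, had strain means of at most 1 FPKM. CC-4532 had 8 of 10 higher (26.6% of all genes) and 1 lower (27.4%), with a median of 0.55. CC-4533 had 1 higher (29.2%) and 7 lower (30.3%), with a median of -0.63, and these counts too were not recomputed without its replicate 3. CVDE1 encodes the chlorophycean violaxanthin de-epoxidase, which works against ZEP1 by forming zeaxanthin from violaxanthin. It stood at 3.11, 4.40, 5.70 and 3.92 FPKM in CC-124 and at 26.9, 31.0, 31.5 and 30.0 FPKM in CC-1009, the lowest and highest strains. In CC-124 it was lower by -2.17 ± 0.16 SE (adjusted p = 3.48e-11, limma). CC-4533 was low as well, with 4.68, 5.06, 13.0 and 4.41 FPKM, and here replicate 3 was the high one. CYP97A6, a cytochrome P450 of the family that hydroxylates carotenoids, stood at 0.89, 0.94, 0.59 and 0.64 FPKM in CC-4533, below all other libraries (-1.91, adjusted p = 9.58e-15, limma). Its relatives CYP97A5 and CYP97C3 were far more abundant there, with means of 37.9 and 16.6 FPKM. CYP97A5 was not called in CC-4533 (-0.03, adjusted p = 0.792, limma). CYP97C3 was lower in CC-4533 (-0.54, adjusted p = 1e-05, limma) but had its lowest mean in CC-1690. Cre03.g149650, related to carotenoid cleavage dioxygenases, was lower in CC-4533 by -1.57 (adjusted p = 7.29e-15, limma), with 4.29, 3.15, 3.75 and 3.34 FPKM. BKT1, the beta-carotene ketolase, was highest in CC-4532, with 6.15, 4.80, 6.08 and 5.30 FPKM (1.00, adjusted p = 0.000325, limma).

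**Figure D5:**
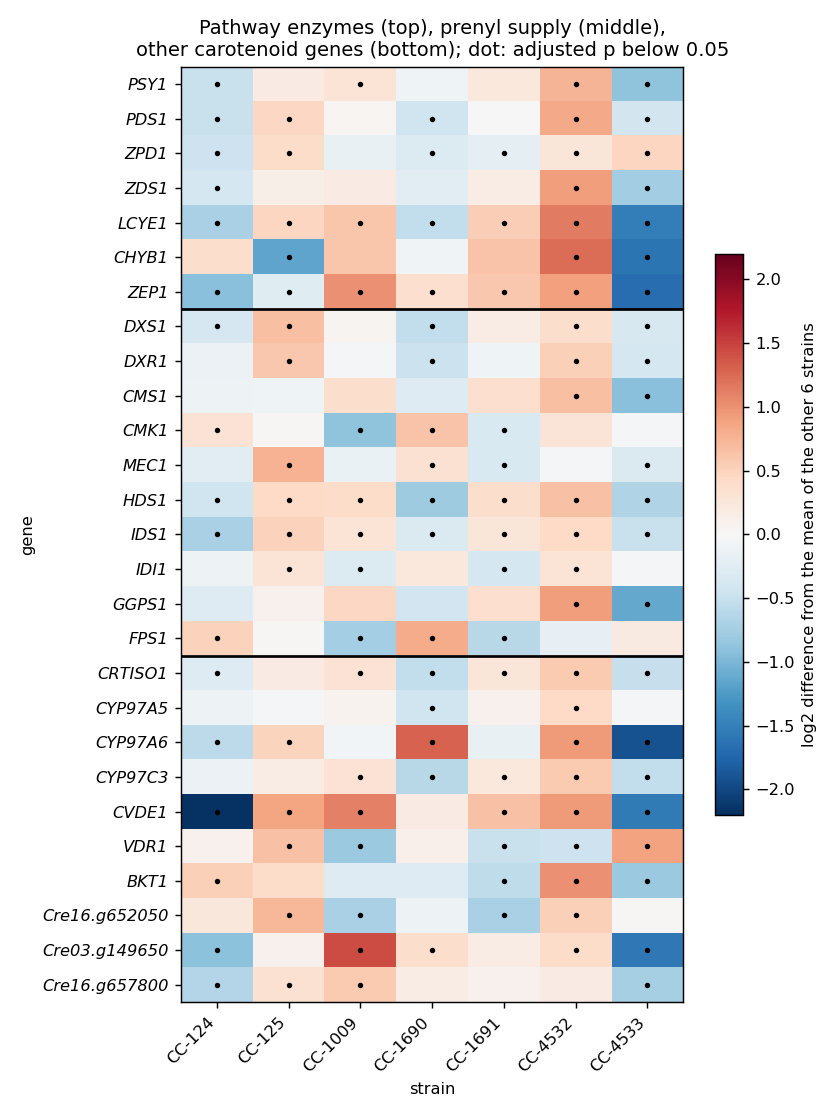
Difference of each strain (horizontal axis) from the mean of the other 6 on the log2 scale, from blue (lower) to red (higher), for the 7 pathway enzymes, 10 genes of prenyl supply and 10 other carotenoid genes (vertical axis). Dots mark an adjusted p below 0.05; CC-4532 has dots on red for 7 of 7, 7 of 10 and 8 of 10 genes of the groups.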

How the data were processed

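RNA of 28 cultures, 4 of each of 7 strains, was analysed. The authors sequenced 50 nt single-end reads of polyadenylated RNA, aligned these to the genome of CC-4532 with STAR, counted reads per gene with featureCounts (a multimapping read as a fraction) and deposited FPKM values, calculated with DESeq2 and rounded to 2 decimals. Tool versions are not given in the sources used here. A table of strain means was not used. In 1 line the gene definition was split over columns and values were read from the line's end. Without read counts the absolute depth is unknown.

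Strains and replicate numbers came from the labels. Log2(FPKM + 0.1) of 14785 genes, those whose mean exceeded 1 FPKM in 1 strain or more, was fitted with limma 3.58.1 in R 4.3.3 (strain as factor, trend over mean expression) and tested by F test, strain contrasts, the 21 pairs and treat. The SE, the p-values and the 95% intervals from limma rest on the spread among the 4 cultures of each strain. The study inoculated the 4 cultures of CC-125 and of CC-4533 together and those of each other strain in 2 batches. The sources used here do not tell which cultures went together, so no batch term was fitted. Step ratios were tested by exact permutation in Python 3.11.15 with numpy 2.4.6. The tests were first run on simulated data. The named genes are all members, the 4 genes with the largest strain difference of each list, the 3 genes with a symbol most correlated with each member, and MID1. CYP97A5 and CYP97C3 are given beside CYP97A6 as genes of its family. Members and lists were chosen with earlier results of these data known. Alternatives were other pseudocounts, filters, scalings, thresholds, leaving out libraries, a replicate block and library set 1 alone. They are described with the closing results. Replicate numbers were not taken to pair cultures of different strains.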

Additional observations from a re-analysis of the deposited data

Results flagged for a closer look

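Among the 49 groups of 4 cultures (7 members in 7 strains), 2 held a culture that lay far from the other 3, and chance alone gives about 1 in 20. PSY1 in CC-1009 replicate 1 was 101.12 FPKM, with the other 3 cultures between 108.37 and 109.05 FPKM. LCYE1 in CC-1009 replicate 2 was 29.16 FPKM, with the others between 26.23 and 26.61 FPKM.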

How the results depend on the processing

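All 7 members differed between strains under each alternative. With each library left out in turn, the members called ran from 33 to 39 of 49, the pair calls from 33 to 39, the members higher in CC-1009 from 3 to 4, in CC-125 from 3 to 4 and in CC-1691 from 2 to 4 (4 without CC-4533 replicate 1 or 3), those lower in CC-125 from 1 to 2, in CC-1690 from 3 to 4 and in CC-1691 from 0 (without its replicate 1 or 2) to 1, and the step ratios called from 3 to 7, lowest without CC-125 replicate 3 or 4 or CC-4533 replicate 4. CC-4532 kept 7 higher and 0 lower, CC-4533 1 higher and 6 lower, CC-124 0 higher and 6 lower, and CC-1009 0 lower. Of 2184 single values so recomputed, 53 changed their call and 0 reversed. With equal summed FPKM the pair calls were 61, and the members were 2 lower in CC-124, 0 higher in CC-125, 5 higher in CC-1009, 0 higher and 5 lower in CC-1690, 6 higher and 0 lower in CC-1691 and 0 higher in CC-4533. There ZPD1 in CC-1691 was 0.26 (adjusted p = 0.113, limma) and ZEP1 in CC-1690 -0.19 (0.321), both reversed from -0.22 and 0.36, as the shift of all genes in these strains makes them. Quantile normalization gave 1 lower in CC-1009 (26.8% of all genes), 0 higher (33.9%) and 5 lower (33.2%) in CC-1690 and 4 higher in CC-1691 (22.9%). Library set 1 alone, with fewer strains, gave 22 calls of members, 13 pair calls, 0 higher and 5 lower in CC-1690, 0 lower in CC-1691 and 2 step ratios, and ZEP1 in CC-1690 was -0.030 (reversed). Over all genes 37.1% were higher and 37.3% lower in CC-1690 there, and 26.6% were lower in CC-1691. A pseudocount of 0.01, no filter, an adjusted p of 0.01 and the replicate block each left 1 lower in CC-125, and an adjusted p of 0.01 left 0 lower in CC-1691. Over all genes the share lower in CC-125 was 27.7% with that pseudocount, 26.8% without the filter and 28.4% with the block. A test against 2-fold at an adjusted p of 0.01 left 2 calls, LCYE1 and ZEP1 lower in CC-4533, with 0 higher there, 0 higher and 0 lower in each other strain, and 11 pair calls. No share over all genes is given for other thresholds, for fits that left out 1 library, or for totals and pair calls of the alternatives. Those counts describe the members only. With the 2 ratios added after seeing the data, 10 ratios were called. Leaving out CC-4533 replicate 3 and CC-1690 replicate 2 together, also chosen after seeing the data, gave 5 higher (30.4% of all genes) and 1 lower (29.9%) in CC-1009, 5 lower in CC-1690 (37%), 2 lower in CC-125 (33.6%) and 4 higher in CC-1691 (28.3%). Where no cause is named, the cause was not tested.

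Same-numbered cultures of different strains did not deviate together (84 pairs of libraries, correlation of deviations -0.37 to 0.28, median 0.00, over 0.1 in 12), and 5 of 28 libraries correlated best with their own number. The replicate block changed no other call of a member. Depth is unknown, so no counting error is given, and the spread among 4 cultures limits the precision.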
